A study of Mus musculus with 4 samples.

Results

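The genes described here are 6 vessel peptide genes: Calcrl, Ramp1, Ramp2 and Ramp3, which encode the receptors for calcitonin gene-related peptide (CGRP) and adrenomedullin, Adm, which encodes adrenomedullin, and Penk, which encodes the precursor of the enkephalins. They were found by their symbols among the 23282 entries of the count tables, and each stood on 1 line. They were selected on their relevance to dural vessels and headache with the counts of these same libraries in dura mater and brain in view, so that their differences between the tissues are given as a description and not as a test. Endothelial cells (ECs), the cells that line blood vessels, were sorted from the dura mater, the outermost of the meninges, and from the brain parenchyma, and the study asked how the ECs of these tissues differ in expression. The mice of both groups were C57BL/6J, aged 8 weeks, with no treatment or transgene named in the labels, and each group held 2 libraries. Per the methods of the study, the sort used antibodies to CD31, CD45 and TER-119, and brain ECs alone were first enriched on magnetic beads, so tissue and enrichment cannot be told apart. The labels do not say whether the libraries came from separate mice or from pools, and p-values therefore measure only the spread between these libraries, which may be technical.

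CALCRL is a G protein-coupled receptor that reaches the cell surface only together with a receptor activity-modifying protein (RAMP), and the RAMP sets which ligand it prefers. With RAMP1 it forms the CGRP receptor, and with RAMP2 or RAMP3 it forms the adrenomedullin receptors, all of which raise cyclic AMP through the G protein Gs. CGRP released from trigeminal nerve fibres dilates dural vessels and is a drug target in migraine, while adrenomedullin is made by ECs themselves and acts on vessel growth and barrier function. Enkephalins are opioid peptides, best known from neurons and the adrenal medulla, that are cut out of a larger precursor.

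Calcrl was at a 6.46-fold higher mean level in dura mater ECs than in brain ECs, and Ramp2 at a 1.73-fold lower one. Ramp3 was higher in both dura mater libraries than in either brain library, though the brain libraries disagreed, and Adm overlapped between the tissues. Ramp1 had no count in any library, and Penk had 10388 counts in dura mater ECs against 1 in brain ECs. Of the 6 genes, 5 passed edgeR's filter on low counts and entered a fit across 9347 genes, and Ramp1 did not. In that fit 1 of the 5, Penk, was past an adjusted p of 0.05, where 0.610% of all genes tested were. By direction the background was 0.428% higher and 0.182% lower in dura mater ECs, and Penk was higher. In DESeq2, 2 of the 5 were past it, Calcrl and Penk, where 9.02% of genes with an adjusted p were. For 3 of the 5 both dura mater libraries lay above both brain libraries, as they did for 26.2% of all genes tested, and for 1, Ramp2, both lay below, as they did for 16.9%. The log2 fold change, dura mater over brain, was above 0 for 4 of the 5 and for 49.8% of all genes. Its median was 2.02 over the 5 genes and −0.01 over all genes tested. Nothing is read from these counts, since the genes were chosen with this contrast known.

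**Figure D1:**
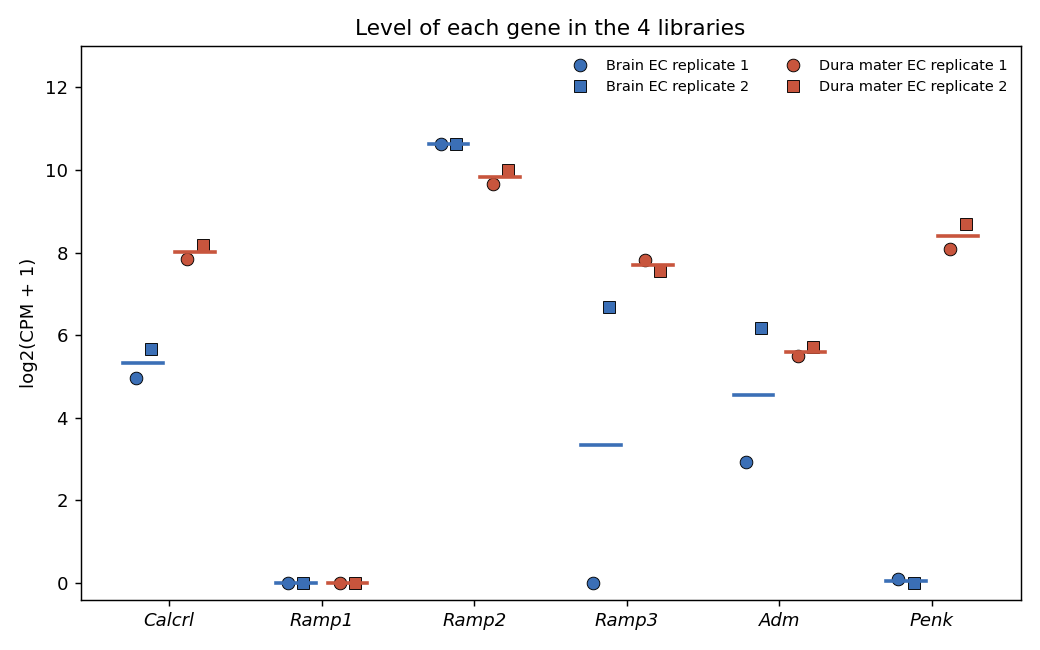
Level of each of the 6 genes in each library, as log2(CPM + 1) on the vertical axis, where CPM is counts per 1000000 of the TMM-adjusted library size. Blue marks brain ECs and red dura mater ECs, circles replicate 1 and squares replicate 2, and the bar is the mean of the 2 libraries on this scale. Ramp3 and Adm are far apart between the 2 brain libraries, while Calcrl, Ramp2 and Penk are close within each tissue.

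The libraries held 13518973 to 16096203 counts. Levels are given as CPM, counts per 1000000 of a library size adjusted by trimmed means (TMM). All 12 endothelial markers examined passed the filter, and their summed level ran from 11255 to 13813 CPM in brain ECs and from 8978 to 11461 CPM in dura mater ECs, so that the groups overlapped. Of the 12, 4 lay above brain in both dura mater libraries, as did 26.2% of all genes tested. Another 5 lay below, as did 16.9% of all genes tested. Cldn5, a tight junction gene of the blood-brain barrier, was among these 5. It was at 1247 and 1317 CPM in brain ECs against 213 and 235 CPM (edgeR adjusted p 0.0388). The 2 libraries of a tissue differed widely for many genes, with a common biological coefficient of variation of 1.39. In bulk libraries such as these, a lower level can mean fewer cells that make an RNA or less RNA per cell, and these cannot be told apart.

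Penk (chromosome 4, 4133531 to 4138819, minus strand, GRCm38) is described first because it was furthest apart. The messenger RNA that matched RefSeq has 2 exons and 807 coding bases, and a search of that coding sequence found 7 stretches of 15 bases that encode an enkephalin pentapeptide, 6 for Met-enkephalin and 1 for Leu-enkephalin, all in exon 2. They are printed to show what the counted transcript carries, from the GENCODE M21 transcript, 5′ to 3′ on the minus strand, with the pentapeptide codons in capitals and the adjoining codons in lower case.
Unit 1, chr4:4134328-4134354: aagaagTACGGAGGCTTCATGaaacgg
Unit 2, chr4:4134307-4134333: aaacggTACGGAGGCTTCATGaagaag
Unit 3, chr4:4134220-4134246: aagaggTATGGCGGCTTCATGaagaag
Unit 4, chr4:4134067-4134093: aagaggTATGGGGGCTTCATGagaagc
Unit 5, chr4:4133995-4134021: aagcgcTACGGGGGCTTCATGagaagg
Unit 6, chr4:4133935-4133961: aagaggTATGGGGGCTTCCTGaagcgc
Unit 7, chr4:4133842-4133868: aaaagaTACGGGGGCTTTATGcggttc
Unit 6 is the Leu-enkephalin stretch, and the 7 stretches are spelled in 6 ways. The flanking codons before each stretch encode pairs of basic residues, which are where the precursor is cut. Those after each stretch do so too except in units 4 and 7, which are therefore not bounded by such pairs on both sides.

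Penk had 1 and 0 counts in the brain EC libraries (replicates 1 and 2) and 3625 and 6763 counts in the dura mater EC libraries. Its level was 0.0690 and 0 CPM in brain ECs against 270 and 414 CPM in dura mater ECs, or 342 ± 102 CPM (SD, n = 2). Both brain libraries were at background and both dura mater libraries were high, 1.53-fold apart from each other. With 1 count in brain ECs against 10388 in dura mater ECs the ratio from summed counts was 9685, with an exact 95% interval of 1738 to 382572 that covers counting error only. The fitted log2 fold change was 10.94 (SE 0.98), which depends on the prior count and is no bound, and ranked 7 of 9347 from the highest. Exons of an antisense gene, A830012C17Rik, overlap 10.8% of the Penk transcript, and since no source states that the counting used strand, reads from that stretch cannot be told apart.

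The classical opioid receptor genes were at 0 counts in every library. Oprm1, Oprd1 and Oprk1, which encode the mu, delta and kappa opioid receptors, and Oprl1, the nociceptin receptor, had no count in 4 libraries, nor had the precursor genes Pdyn and Pnoc. By counting error alone, a count of 0 allows up to 3 counts, or 0.184 to 0.227 CPM depending on the library. Expression below this level was not detectable. The limit does not cover the spread between libraries, such as that of Pomc below. The remaining opioid genes, Pomc, the precursor of beta-endorphin, and Ogfr, whose product binds Met-enkephalin as the opioid growth factor receptor, were counted. Pomc had 362 and 0 counts in brain ECs against 0 and 249 in dura mater ECs, with no order between the tissues (log2 fold change −0.70, SE 3.89, edgeR adjusted p 1.00). Ogfr was at 35.5 and 33.0 CPM against 13.1 and 46.8 CPM (log2 fold change −0.19, SE 1.80, edgeR adjusted p 1.00).

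Markers of other cells stood higher in the same libraries as Penk. All 10 fibroblast markers were listed, 5 were tested, and for those 5 both dura mater libraries lay above both brain libraries, as for 26.2% of all genes tested. Nothing is read from this count, since a gene such as Igf1 (5 and 5 against 714 and 386 counts) passed the filter only on its dura mater counts. Among those not tested, Dpt (0 and 3 against 434 and 0 counts) and Mfap5 (2 and 2 against 1 and 139) overlapped. The summed level over the 10 fibroblast markers was 7.93 and 51.5 CPM in brain ECs against 423 and 386 CPM in dura mater ECs. The counts of Dcn, which encodes decorin, were 16 and 15 against 1184 and 1664, whereas Pdgfra, a defining fibroblast receptor, had 1, 1, 0 and 1 counts and Lum at most 4. Lymphatic endothelial markers summed to 123 and 145 CPM in brain ECs against 433 and 645 CPM in dura mater ECs. The brain sums were nearly all Flt4 (123 and 144 CPM, against 178 and 246 CPM in dura mater ECs). Of the 7 markers, 5 were tested, and all 5 lay above brain in both dura mater libraries, where 26.2% of all genes tested did. No reading is made of this count, since all of them but Flt4 had 0 counts in both brain libraries. Prox1 and Lyve1 had 0 counts in the brain libraries, against 492 and 125 counts of Prox1 and 911 and 1776 counts of Lyve1 in dura mater ECs. Like Mmrn1 and Ccl21a, both passed the filter only on their dura mater counts. The paper describes LYVE1 on macrophages of the dura mater too. Pdpn (3 and 7 against 3 and 45 counts) and Reln (1 and 0 against 0 and 502) overlapped.

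The summed level of 13 genes induced by tissue dissociation stood at 7975 and 7543 CPM against 30223 and 34565 CPM. Erythroid genes lay the other way, at 26514 and 37944 CPM in brain ECs against 2196 and 1123 CPM. Mural cell markers (710 and 1178 against 1196 and 702 CPM), leukocyte markers (96.7 and 52.8 against 105 and 47.2 CPM), neuron markers (142 and 187 against 295 and 173 CPM) and glia and Schwann cell markers (105 and 72.2 against 242 and 37.0 CPM) overlapped between the tissues. Ptprc, which encodes the CD45 antigen used in the sort, had 1 to 4 counts in each library. The part of these cells and responses in the levels of Penk, Calcrl and the RAMPs was not tested.

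**Figure D2:**
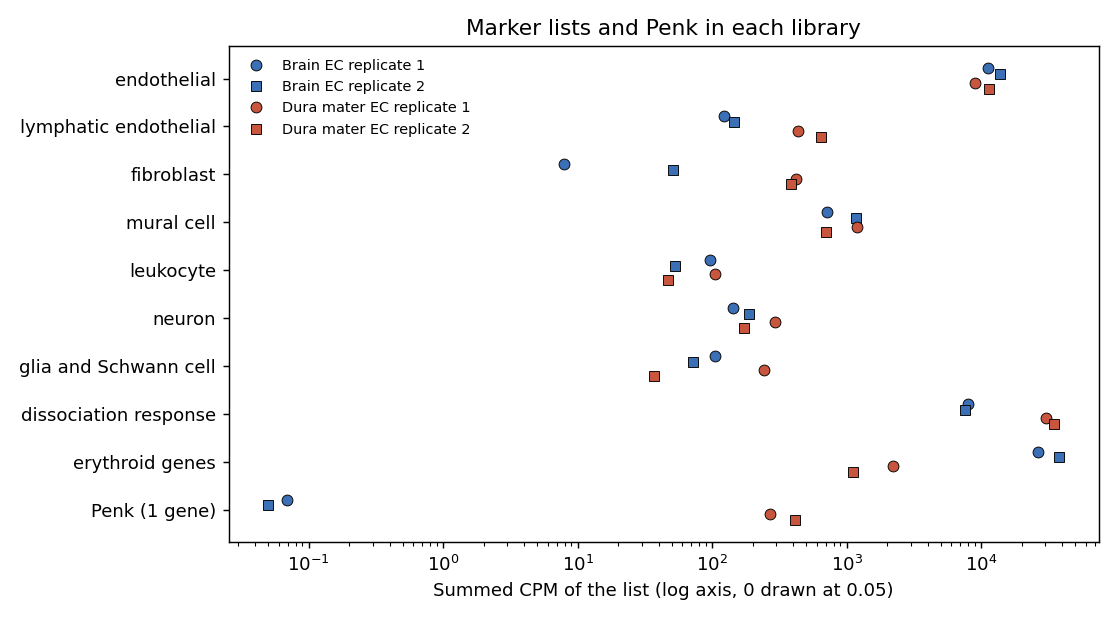
Summed CPM of each marker list in each library, with Penk alone in the bottom row, on a log axis where 0 is drawn at 0.05. Colours and symbols are those of the plot of levels by library. The sums of fibroblast, lymphatic endothelial and dissociation response genes are higher in both dura mater libraries, that of erythroid genes is lower, and those of the other lists overlap.

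Calcrl (chromosome 2, 84330626 to 84425411, minus strand, GRCm38; 16 exons), the shared receptor subunit, had 438 and 661 counts in brain ECs against 3079 and 4714 counts in dura mater ECs. In CPM these were 30.2 and 49.97 against 230 and 289. Every library was well above background, the tissues did not overlap, and the lower dura mater library was 4.60-fold above the higher brain library, whereas libraries of one tissue differed by 1.65-fold in brain and 1.26-fold in dura mater. The means were 40.1 ± 14.0 and 259 ± 41.8 CPM (SD, n = 2), a 6.46-fold difference and a log2 fold change of 2.69 (SE 0.63). Of all genes tested, 21.9% had a larger change in either direction.

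Ramp2 (chromosome 11, 101246028 to 101259546, plus strand), the partner in the first adrenomedullin receptor, was at 1572 and 1584 CPM in brain ECs (22786 and 20950 counts) and at 805 and 1015 CPM in dura mater ECs (10795 and 16565 counts). The brain libraries were within 1.01-fold of each other, and the higher dura mater library was still below both of them. The means were 1578 ± 8.24 and 910 ± 148 CPM (SD, n = 2), 1.73-fold higher in brain, a log2 fold change of −0.79 (SE 0.30). It was the only one of the 5 tested genes with both dura mater libraries below both brain libraries.

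Ramp3 (chromosome 11, 6658521 to 6677475, plus strand), the partner in the second adrenomedullin receptor, had 0 and 1343 counts in brain ECs against 3015 and 3057 counts in dura mater ECs. Its levels were 0 and 102 CPM against 225 and 187 CPM. The dura mater libraries were within 1.20-fold of each other and both above the higher brain library, but the brain libraries disagreed on whether the gene was expressed at all. The mean of the dura mater libraries was 2.03-fold above brain replicate 2. It was at least 995-fold above brain replicate 1 if 3 counts are taken as the limit of that library, which covers counting error only. The log2 fold change was 2.02 with an SE of 2.20, so that the difference did not exceed its error.

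Such splits between the brain libraries were not particular to Ramp3. Of 2937 genes with at least 1000 counts in brain replicate 2, 85 (2.89%) had 0 counts in brain replicate 1, and of 3079 such genes in replicate 1, 58 (1.88%) had 0 in replicate 2. Between the dura mater libraries these numbers were 12 of 3151 (0.381%) and 3 of 2808 (0.107%). An antisense pseudogene, Gm11978, overlaps 8.19% of the Ramp3 transcript, but was itself at 0 counts in every library.

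Ramp1 (chromosome 1, 91179822 to 91225196, plus strand), the partner that makes the CGRP receptor, had 0 counts in all 4 libraries. It was 1 of 9622 entries at 0 in every library, 41.3% of the table. Taking 3 counts as the limit, its level was under 0.207 and 0.227 CPM in the brain EC libraries. In the dura mater EC libraries it was under 0.224 and 0.184 CPM. These limits cover counting error only. Some genes with at least 1000 counts in a library had 0 in the other library of that tissue. The CGRP genes themselves, Calca and Calcb, had 1 count each, Calca in brain replicate 1 and Calcb in brain replicate 2, and 0 elsewhere.

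Ramp3 made up a larger share of the RAMP counts in both dura mater libraries than in either brain library. Summed over the 3 RAMP genes there were 22786 and 22293 counts in brain ECs against 13810 and 19622 in dura mater ECs, or 1629 ± 80.0 and 1116 ± 122 CPM (SD, n = 2). Ramp3 made up 0% of these counts in brain replicate 1 (which allows up to 0.0132%) and 6.02% in brain replicate 2 (95% Wilson interval 5.72 to 6.34). It made up 21.8% (21.2 to 22.5) and 15.6% (15.1 to 16.1) in dura mater replicates 1 and 2, so that the tissues did not overlap. The limit and the intervals cover counting error only and are far narrower than the spread between libraries of one tissue. The mean share was 3.01% ± 4.26 in brain ECs against 18.7% ± 4.42 in dura mater ECs (SD, n = 2), and scaled per kb of transcript it was 2.89% ± 4.08 and 18.0% ± 4.30. Whether counts of this kit scale with transcript length is not certain from the sources used here, so both are given.

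Calcrl counts were fewer relative to that pool in brain ECs than in dura mater ECs. There were 1.92 and 2.97 Calcrl counts per 100 RAMP counts in brain and 22.3 and 24.0 in dura mater, with means of 2.44 ± 0.737 and 23.2 ± 1.22 (SD, n = 2). The libraries of one tissue lay close together on this measure and the tissues lay far apart. The ratio is not scaled by transcript length, and only its difference between libraries is of use.

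**Figure D3:**
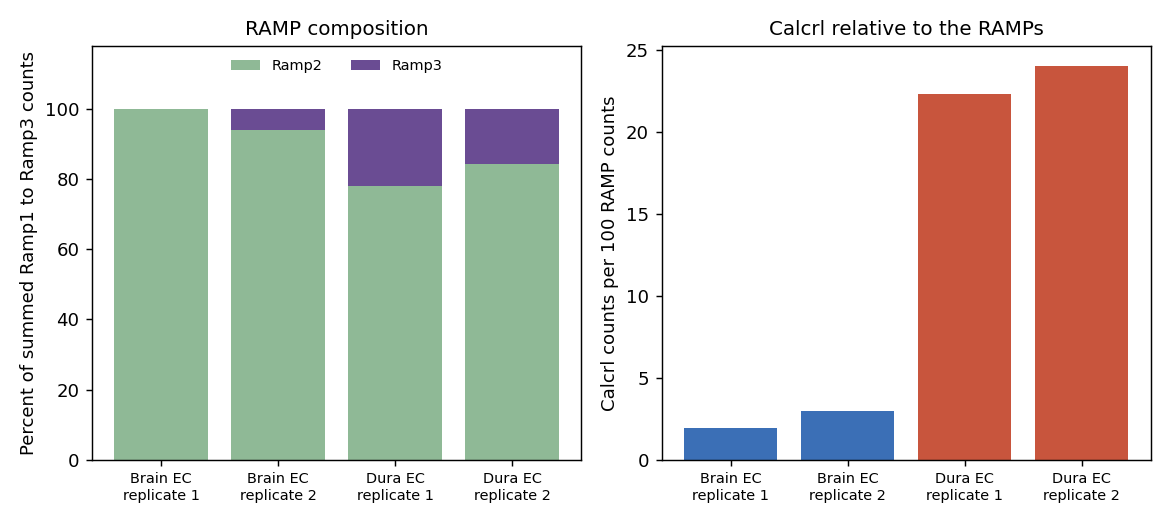
Left, share of Ramp2 and Ramp3 in the summed counts of Ramp1, Ramp2 and Ramp3 in each library, in percent; Ramp1 had 0 counts. Right, Calcrl counts per 100 RAMP counts in each library, blue for brain ECs and red for dura mater ECs. Ramp3 takes 21.8% and 15.6% of the pool in dura mater ECs and at most 6.02% in brain ECs.

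Adm (chromosome 7, 110627661 to 110629820, plus strand), the ligand of the RAMP2 and RAMP3 receptors, had 96 and 940 counts in brain ECs against 590 and 836 in dura mater ECs. In CPM these were 6.62 and 71.1 against 44.0 and 51.2. Both dura mater libraries fell between the brain libraries, which were 10.7-fold apart, so the tissues overlapped. The means were 38.8 ± 45.6 and 47.6 ± 5.10 CPM (SD, n = 2) and the log2 fold change was 0.29 (SE 1.67). Its sign rested on 1 library, since the mean of the dura mater libraries was 7.19-fold that of brain replicate 1 and 0.670-fold that of brain replicate 2.

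Under the alternatives that could be fitted, the log2 fold changes of Calcrl, Ramp2, Ramp3 and Penk kept their sign, and those of Ramp3 and Adm moved most with the brain library left out. Calcrl stayed between 2.32 and 3.03 on the log2 scale, Ramp2 between −0.99 and −0.65, and Penk between 10.53 and 13.11. Ramp3 ranged from 0.98 without brain replicate 1 to 10.56 without brain replicate 2, where it is again a fit against a library at 0 and no bound. Adm was −0.63 without brain replicate 1 and 2.76 without brain replicate 2.

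**Figure D4:**
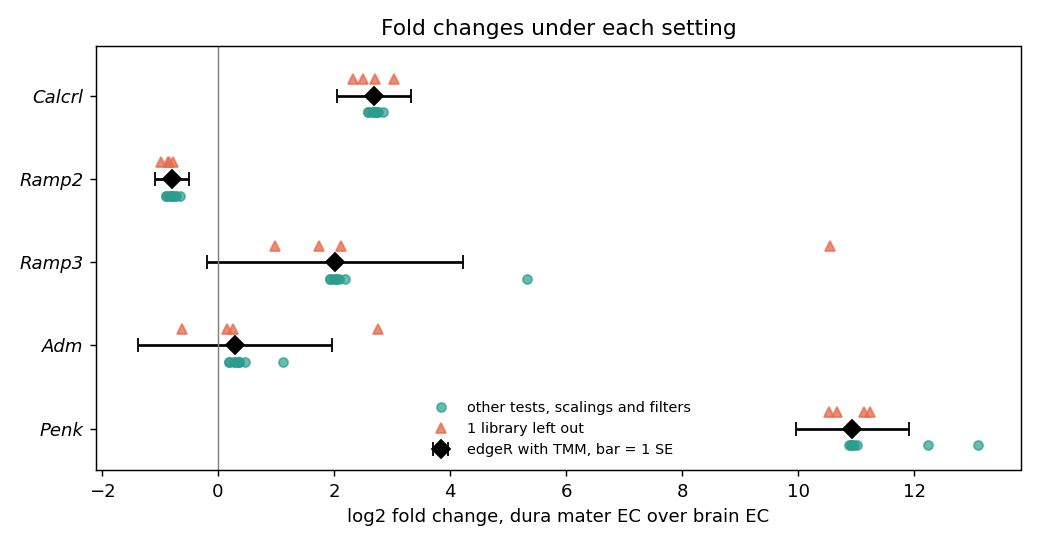
Log2 fold change, dura mater ECs over brain ECs, of the 5 genes that passed the filter. Diamonds give the edgeR fit with bars of 1 SE, circles other tests, scalings and filters, and triangles the fit with 1 library left out. The estimates for Ramp3 and Adm spread from 0.98 to 10.56 and from −0.63 to 2.76, while those for Calcrl and Ramp2 stay within 1 unit.

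Promoter sequences were at hand for 4 of the 6 genes, from RefSeq on GRCm38.p6, each running from 250 bases before to 50 bases after the start. Those of Calcrl and Ramp3, the receptor pair whose 2 dura mater libraries lay above both brain libraries, and of Ramp1, which was at 0 throughout, are printed 5′ to 3′ on the gene's strand so that they can be compared. Capitals mark matches on either strand to the short form of the cyclic AMP response element (TGACG), the core of the hypoxia response element (ACGTG), an ETS site (CAGGAAG) or a GC box (GGGCGG), of which the last 2 were chosen after the sequences were seen.
Calcrl, chr2:84425217-84425516, minus strand: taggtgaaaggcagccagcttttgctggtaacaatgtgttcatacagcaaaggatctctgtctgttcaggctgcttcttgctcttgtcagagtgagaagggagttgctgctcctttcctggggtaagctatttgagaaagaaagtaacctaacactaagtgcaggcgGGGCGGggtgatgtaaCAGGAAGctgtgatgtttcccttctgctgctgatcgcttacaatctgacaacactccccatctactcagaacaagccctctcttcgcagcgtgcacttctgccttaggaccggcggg
Ramp3, chr11:6658283-6658582, plus strand: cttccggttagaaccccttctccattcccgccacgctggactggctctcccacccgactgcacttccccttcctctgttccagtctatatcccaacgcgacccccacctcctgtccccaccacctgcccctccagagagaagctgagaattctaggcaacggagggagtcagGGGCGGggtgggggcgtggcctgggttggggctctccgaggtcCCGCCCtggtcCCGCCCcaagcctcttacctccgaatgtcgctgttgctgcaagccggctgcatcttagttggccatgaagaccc
Ramp1, chr1:91179572-91179871, plus strand: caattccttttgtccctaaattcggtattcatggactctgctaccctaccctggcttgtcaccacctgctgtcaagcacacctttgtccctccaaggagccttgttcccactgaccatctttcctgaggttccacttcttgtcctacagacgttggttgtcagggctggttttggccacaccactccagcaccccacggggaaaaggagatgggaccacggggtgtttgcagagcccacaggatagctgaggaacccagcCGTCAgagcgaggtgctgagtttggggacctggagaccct
The Calcrl window held 1 ETS match and 1 GC box, the Ramp3 window 3 GC boxes, and the Ramp1 window 1 TGACG match. Of all 32851 promoters of this length, 13.3% held the ETS letters, 35.7% the GC box, 20.8% TGACG and 19.6% ACGTG. The Adm window held 1 GC box and none of the others. GC content was 50.7% for Calcrl, 63.7% for Ramp3, 55.7% for Ramp1 and 56.0% for Adm, against a median of 52.7% over all promoters. These matches describe letters only.

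Other genes of the peptide pathways were taken from 5 lists with 65 genes, of which 37 were tested and 15 were at 0 in every library. In edgeR 0 of the 37 were past an adjusted p of 0.05, where 0.610% of all genes were. At an unadjusted p under 0.05 there were 8, with 7 of them above and 1 below brain, where 10.01% of all genes were, and DESeq2 called 4, all higher, among them Anpep, Atf4 and Pde4b, where it called 9.02% of all genes with an adjusted p. No gene of these lists is therefore described as changed.

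Among the 8 other members of the CGRP family, 3 were tested, with a median log2 fold change of −1.93. Adm2, Calcr and Iapp, which encode intermedin, the calcitonin receptor and amylin, were at 0 in every library. Ackr3, a scavenger receptor that takes up adrenomedullin and the chemokine CXCL12, was at 311 and 146 CPM in brain ECs against 43.9 and 75.8 CPM in those of dura mater (log2 fold change −1.93, SE 0.70, edgeR adjusted p 0.466). Its tissues did not overlap.

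Of 11 genes for peptide processing and breakdown, 8 were tested, 6 with a log2 fold change above 0 (median 1.01), where 49.8% of all genes tested were. This count is not read further, since Anpep passed the filter only on its dura mater counts. Anpep, aminopeptidase N, which breaks down enkephalins, had 1 and 2 counts in brain ECs against 689 and 1627 in those of dura mater (edgeR adjusted p 0.256, DESeq2 adjusted p 1.90e-05). Mme, neprilysin, another enkephalin-degrading enzyme, had 1 count in each brain library and 0 in the dura mater libraries. Ece1, endothelin-converting enzyme, was at 956 and 809 CPM against 1410 and 1724 CPM (log2 fold change 0.83, SE 0.30, edgeR adjusted p 0.466), and Cpe, carboxypeptidase E, at 294 and 203 CPM against 576 and 491 CPM (log2 fold change 1.10, SE 0.41, edgeR adjusted p 0.466). Pam, the enzyme that amidates adrenomedullin and CGRP, was at 1.72 and 34.8 CPM against 140 and 174 CPM (log2 fold change 3.09, SE 1.43, edgeR adjusted p 0.494). The convertases Pcsk1 and Pcsk2, which cut proenkephalin in neuroendocrine cells, were at 0 in every library. Mme, Pam and the convertases, like the opioid receptors, were singled out after their values were seen.

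Of 12 genes for other vessel neuropeptides, 5 were tested, all 5 with a log2 fold change above 0 (median 1.90), where 49.8% of all genes tested were. Nothing is read from this count, since Adcyap1r1 passed the filter only on its dura mater counts. The median is the value of Npr3, which overlapped between the tissues (SE 3.64). Npr1, the receptor for atrial natriuretic peptide, was at 76.9 and 160 CPM in brain ECs against 234 and 426 CPM in those of dura mater (log2 fold change 1.48, SE 0.60, edgeR adjusted p 0.466). Npr2, the receptor for C-type natriuretic peptide, had 4 and 676 counts in brain and 924 and 2838 in dura mater (edgeR adjusted p 0.931). Adcyap1r1, the receptor for the dural vasodilator PACAP, had 0 counts in either brain library but 407 and 65 in the dura mater libraries (edgeR adjusted p 0.466), while the receptors for vasoactive intestinal peptide, Vipr1 and Vipr2, were at 0 throughout.

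Of 26 genes of Gs and cyclic AMP signalling, 19 were tested, with a median log2 fold change of 0.39. The log2 fold change was above 0 for 10 of them, where it was for 49.8% of all genes tested. That count is not read further, since genes such as Adcy5 and Adcy9 passed the filter only on their dura mater counts. Atf4, a transcription factor, was at 303 and 295 CPM against 1544 and 1111 CPM (log2 fold change 2.15, SE 0.35, edgeR adjusted p 0.0739, DESeq2 adjusted p 3.47e-05). Pde4b, which degrades cyclic AMP, had 136 and 7 counts in brain and 5208 and 5568 in dura mater (log2 fold change 6.16, SE 1.37, edgeR adjusted p 0.194, DESeq2 adjusted p 4.67e-07). Prkar1a, a regulatory subunit of protein kinase A, was at 890 and 1310 CPM against 767 and 777 CPM (edgeR adjusted p 0.757), and Gnb1, a G protein beta subunit, at 566 and 1216 CPM against 746 and 795 CPM (edgeR adjusted p 1.00).

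**Figure D5:**
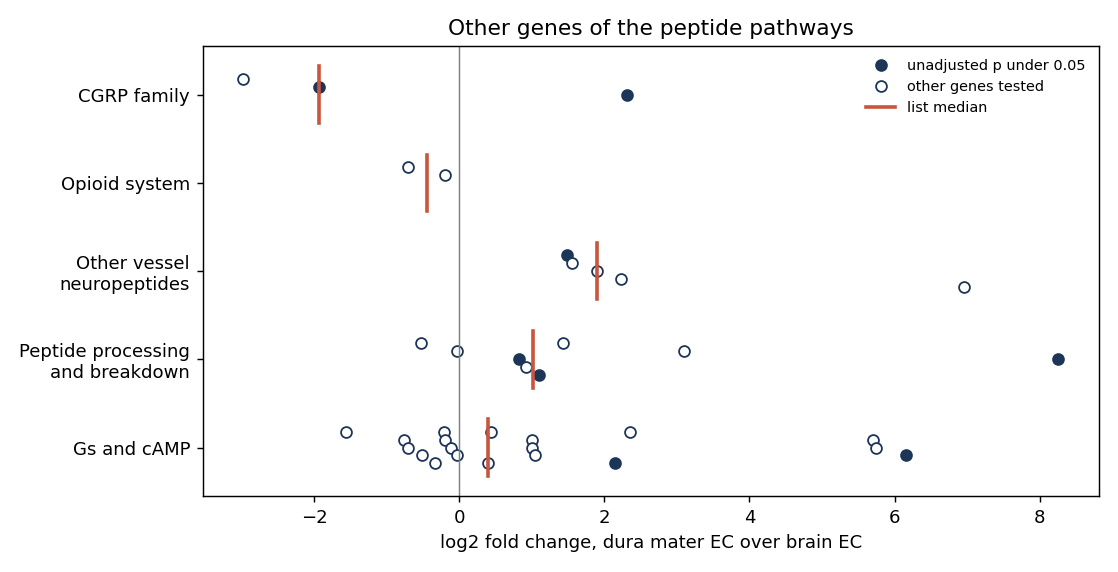
Log2 fold change, dura mater ECs over brain ECs, of the 37 tested genes of the 5 pathway lists, 1 point per gene and 1 row per list. Filled points had an unadjusted edgeR p under 0.05, open points did not, and the red bar is the median of the list. The medians run from −1.93 for the CGRP family to 1.90 for the other vessel neuropeptides, and 0 points pass an adjusted p of 0.05.

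The genes with the pattern most like each of the 5 were found by the root mean square difference of log2 CPM over the 4 libraries, each gene centred on its own mean. For Calcrl they were Tmem176a (0.0873), Rgs16 (0.104) and Ier3 (0.104), and Ier3, one of the 13 genes induced by dissociation, itself differed between tissues in the fit (edgeR adjusted p 0.0248). The part of dissociation in this likeness was not tested. For Ramp2 they were Atp6ap1 (0.0460), Klf3 (0.0548) and Rock1 (0.0629). For Ramp3 they were Fkbp9 (0.336), Soga1 (0.382) and Ldb2 (0.467), which had 4, 0 and 0 counts in brain replicate 1 and 2482, 1030 and 738 in brain replicate 2. For Adm they were Psme3 (0.0946), Actr1a (0.114) and Kdsr (0.117). For Penk they were Col15a1 (0.206), Fam167b (0.483) and Snai1 (0.488), with 0, 0 and 1 counts in brain replicate 1, 0 in replicate 2 for each, and 2872, 1964 and 3002 counts in dura mater replicate 1. These likenesses rest on 4 libraries and are descriptions.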

How the data were processed

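The labels name a Lexogen Quant-Seq kit for the libraries. For each library the authors deposited raw counts, as whole numbers per gene symbol with no scaling. The methods name TopHat for mapping and cufflinks for the comparison; the submitters' processing notes name Bowtie2, edgeR and mm10, and the counter, annotation and use of strand are not given in the sources used here. Groups and replicate numbers came from the sample titles. The counts were fitted with edgeR 4.0.16 in R 4.3.3 (quasi-likelihood test, TMM scaling, filterByExpr, tissue as the only term, two-sided, Benjamini-Hochberg over 9347 genes, prior count 2), which stands in for cufflinks. A standard error is the size of a log2 fold change over the root of its F statistic. DESeq2 1.42.0, other scalings and filters, a newer dispersion estimate, a replicate block, a prior count of 0.5 and each library left out were alternatives. The fits were tested on simulated data. With a low coefficient of variation given to every gene, edgeR recovered most of the changed genes. With one near the common value (1.39) given to every gene, edgeR recovered none of the changed genes and most DESeq2 calls were false. Variation in these libraries differs between genes, so the simulation cannot decide on the call of a single gene. Apart from the simulation, calls by DESeq2 alone are taken as weak because edgeR did not share them. Deviations of same-numbered libraries did not run together (correlation across genes −0.0208). Wilson intervals were from statsmodels 0.14.6. Positions and transcript lengths are from GENCODE M21 (GRCm38), matched by symbol; the build named in the notes is mm10. Other genes were named by rule: those past the threshold, otherwise the 2 of each list with the lowest p and the 2 with the highest mean CPM, and the 3 nearest patterns. The members, lists and rules were chosen with earlier results of these data known. Protein sequences were not used here. A gene that the rule names is not reported here.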

Additional observations from a re-analysis of the deposited data

How the results depend on the processing

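The fold changes of Calcrl and Ramp2 kept their direction under all 13 alternatives and that of Penk under the 12 that could be fitted. With at least 10 counts in every library Ramp3 and Penk drop out of the fit and give no value. The sign of Adm reversed without brain replicate 1 (−0.63) and was 2.76 without brain replicate 2. The number of these genes past an adjusted p of 0.05, 1 in edgeR, was 2 in DESeq2 and with the newer dispersion estimate (Calcrl and Penk), 0 with 10 counts in every library, and 1 to 3 with 1 library left out, where a lone library is assumed to vary like the others; Ramp3 was past it without brain replicate 2. Pathway list genes past it numbered 0 in edgeR, 4 in DESeq2, 3 without a filter, with the newer dispersion estimate and with the replicate block, 2 with 10 counts in every library, and 0 to 10 with 1 library left out. The highest of these, 10, came without brain replicate 2, and without brain replicate 1 there were 5. Over all genes, 57 differed in edgeR, 810 in DESeq2, 326 without a filter, 141 with 10 counts in every library, 305 with the newer dispersion estimate, 224 with the replicate block (1 of the 6 genes, as without it), and 80 to 740 with 1 library left out. The highest count was without brain replicate 1 (740), then without brain replicate 2 (701). Upper-quartile scaling moved the median log2 fold change of all genes from −0.01 to 0.13. It was 0.27 without a filter, 0.25 with the replicate block, 1.03 without brain replicate 1 and 0.95 without brain replicate 2. The cause of these shifts was not tested. The difference in the Ramp3 share, 15.7 percentage points, was 15.1 per kb of transcript and 12.6 to 18.8 with 1 library left out. With 2 libraries per tissue, differences within the spread of Ramp3 and Adm in brain ECs could not be resolved.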
